A study of Homo sapiens with 12 samples.

Results

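The genes described here are 45 members of the DNA replication and S phase machinery, matched to the array by gene symbol. The rule uses no measured value except the detection p, but the list was drawn up with earlier results of these data known. They were grouped by role into 11 genes of origin licensing, 6 of helicase activation, 14 of the fork and DNA synthesis, 3 of nucleotide supply, 5 of G1/S control and 6 of histone supply. The array carried 56 probes for them, of which 54 reached a detection p under 0.05 on 3 or more of the 12 arrays. All 45 genes had at least 1 such probe, and all 45 were detected on all 12 arrays by the probe used for the gene. They are 45 of the 13228 genes and unnamed probes tested.

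RNA of HEK293, a cell line derived from human embryonic kidney, was hybridised to 12 Illumina bead arrays. The Mock transfectants are the control line, and the stable RPF1 transfectants carry the cDNA of the transcription factor RPF-1 in the vector pTRE2puro; each line has a Tet+ and a Tet- group. All 4 groups were cultured for 48 h, the Tet+ groups with tetracycline (Tet), the Tet- groups in medium depleted of it, and RPF-1 is switched on when Tet is absent. Each group has 3 arrays. RPF1 and Mock are separate transfectants, and the labels used here do not say whether either is 1 clone. They also do not say whether the 3 replicates were separate cultures, so a p-value measures the spread between these samples, which may be technical.

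HEK293 carries the adenoviral E1A gene, whose product binds the retinoblastoma protein and releases E2F, the transcription factor family that drives most S phase genes. DNA replication is prepared in G1, when the origin recognition complex, CDC6 and CDT1 load the MCM helicase onto origins. CDC45 and the GINS complex then activate the helicase, and the replicative polymerases copy both strands on PCNA, the sliding clamp that replication factor C (RFC) loads. New DNA is wrapped into nucleosomes, so histone mRNAs are made in the same phase: NPAT and CASP8AP2 act at histone gene loci, SLBP binds the stem-loop at the end of histone mRNAs, and the chaperones ASF1B, CHAF1A and CHAF1B bring histones to the fork.

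The RefSeq promoters (GRCh38.p14, 250 bases before to 50 after the start) of 41 members were matched, 51 promoters in all. MCM4, MCM5, GINS4 and CCNE2 had no entry. An E2F motif (TTTCCCGC, TTTGGCGC, TTTCGCGC or TTTGCCGC, either strand, overlapping matches counted) was present in 47.1% of the 51 member promoters and in 3.31% of all 35116 promoters of that length. The CCAAT box (CCAAT, either strand) was present in 60.8% of member promoters and 34.6% of all. By gene, 7 of 9 licensing genes, 8 of 14 fork genes and 3 of 4 G1/S genes had an E2F match, against 1 of 6 histone supply genes, CASP8AP2. A match is a description of letters and says nothing of binding.

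The promoters of 4 members show that range, printed 5′ to 3′ on the gene's strand with the E2F and CCAAT matches in capitals. MCM6, a helicase subunit, has 4 E2F matches that overlap in pairs, at bases 99 to 110 and 161 to 172 of its window. Each pair is 1 stretch that matches on both strands. CASP8AP2 and E2F2 have 1 match each, while the E2F letters do not occur in the SLBP window. MCM6 lies at chr2:135876394-135876693 (minus strand), CASP8AP2 at chr6:89829630-89829929 (plus), E2F2 at chr1:23531184-23531483 (minus) and SLBP at chr4:1712270-1712569 (minus).
MCM6: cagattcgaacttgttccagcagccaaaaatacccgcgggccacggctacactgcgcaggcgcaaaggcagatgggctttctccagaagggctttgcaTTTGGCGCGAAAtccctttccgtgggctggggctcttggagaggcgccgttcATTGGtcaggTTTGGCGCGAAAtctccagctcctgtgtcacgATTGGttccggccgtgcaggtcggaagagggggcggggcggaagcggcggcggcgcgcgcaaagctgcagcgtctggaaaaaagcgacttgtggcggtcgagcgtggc
CASP8AP2: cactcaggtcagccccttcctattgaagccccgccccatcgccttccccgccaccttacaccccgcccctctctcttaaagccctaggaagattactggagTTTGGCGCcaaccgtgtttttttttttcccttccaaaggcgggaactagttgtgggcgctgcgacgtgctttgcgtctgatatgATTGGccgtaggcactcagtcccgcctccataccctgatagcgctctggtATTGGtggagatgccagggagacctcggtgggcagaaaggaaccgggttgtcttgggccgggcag
E2F2: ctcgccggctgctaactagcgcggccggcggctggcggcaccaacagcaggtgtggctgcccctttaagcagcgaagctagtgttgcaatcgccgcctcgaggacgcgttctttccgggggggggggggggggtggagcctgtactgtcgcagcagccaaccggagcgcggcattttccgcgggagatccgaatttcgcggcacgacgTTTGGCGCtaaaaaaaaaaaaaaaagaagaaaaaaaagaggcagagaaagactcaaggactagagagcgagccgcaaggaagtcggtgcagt
SLBP: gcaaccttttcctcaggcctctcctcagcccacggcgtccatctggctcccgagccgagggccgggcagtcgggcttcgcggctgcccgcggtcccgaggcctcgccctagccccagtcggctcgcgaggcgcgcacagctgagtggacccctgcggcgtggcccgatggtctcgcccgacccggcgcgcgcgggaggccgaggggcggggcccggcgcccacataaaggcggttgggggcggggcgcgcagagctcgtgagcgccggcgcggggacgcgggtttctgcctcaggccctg

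The arrays each detected 13568 to 14493 probes, and correlations between arrays of a group were 0.989 to 0.996. The description labels of the arrays begin with 1 of 3 numbers, which are read here as 3 chips. Mock Tet+ 1 and 2 were on the first and RPF1 Tet- 2 and 3 on the third. The other 8 arrays, with at least 1 of every group, were on the second. The counts of members called below are therefore also given with chip as a block, where the log2 values equal those of the second chip. The leading component of the within-group deviation held 39.0% of it. In each group the array scoring highest on it was picked, so that there is 1 per group follows from the choice. These were replicate 2 of Mock Tet+, 1 of Mock Tet-, 3 of RPF1 Tet+ and 2 of RPF1 Tet-. Their scores were 0.31, 0.21, 0.45 and 0.55, and those of the other arrays were negative. The 4 are named below as the arrays that deviated together. In that order they held the lowest value of their group for 25, 21, 21 and 20 of the 45 genes (44.4% to 55.6%, beside 36.4% to 40.8% of all features). Of 6 HEK293 markers, 4 were detected on all 12 arrays (VIM, NEFL, NEFM and LIN28B) and SALL1 and PAX2 on none. The summed level of the 6 was 15.4 in RPF1 Tet+ against 14.8 in RPF1 Tet- on the log2 scale. In the Mock groups it was 15.3 with Tet and 15.4 without. LIN28B and VIM were lower in RPF1 Tet- than in RPF1 Tet+ by log2 changes of −1.02 and −0.62 (limma adjusted p = 3.39e-05 and 0.000817). Both were also called with chip as a block. NEFL and NEFM went the other way, from 9.96 to 10.30 and from 7.05 to 7.21, and were not called.

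None of the 45 genes was called when Tet was taken away from Mock cells. Their log2 changes lay between −0.12 and 0.09, and the widest 95% intervals reached from −0.38 to 0.42. No gene passed an adjusted p under 0.05 (limma), none of the 45 had an unadjusted p under 0.05, and over all 13228 features 0% were called and 2.47% had an unadjusted p under 0.05. RFC2, the clamp loader subunit with the smallest p, had a log2 difference of −0.12 (SE 0.08).

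In RPF1 cells, 6 of the 45 genes were higher without Tet than with it and none were lower, with log2 changes of 0.31 to 0.45. With chip as a block 0 of the 45 were called, beside 3.18% of all features. Of the 6, 3 belong to the histone supply list (NPAT, CASP8AP2 and SLBP), and 1 each to licensing (ORC1), helicase activation (GINS4) and G1/S control (E2F2). The 6 are 13.3% of the 45, beside 13.4% of all features called, 6.67% higher and 6.72% lower, so the share over all 45 is near the background. By list, 3 of 6 histone supply genes and 3 of the 39 others were called, and 0 of 14 fork genes. The median log2 change was 0.22 for histone supply, 0.30 for G1/S control, 0.02 for licensing, −0.04 for the fork list, 0.04 for all 45 and −0.01 for all features. In bulk RNA, a change in the number of cells in S phase and a change in RNA per cell cannot be told apart.

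**Figure D1:**
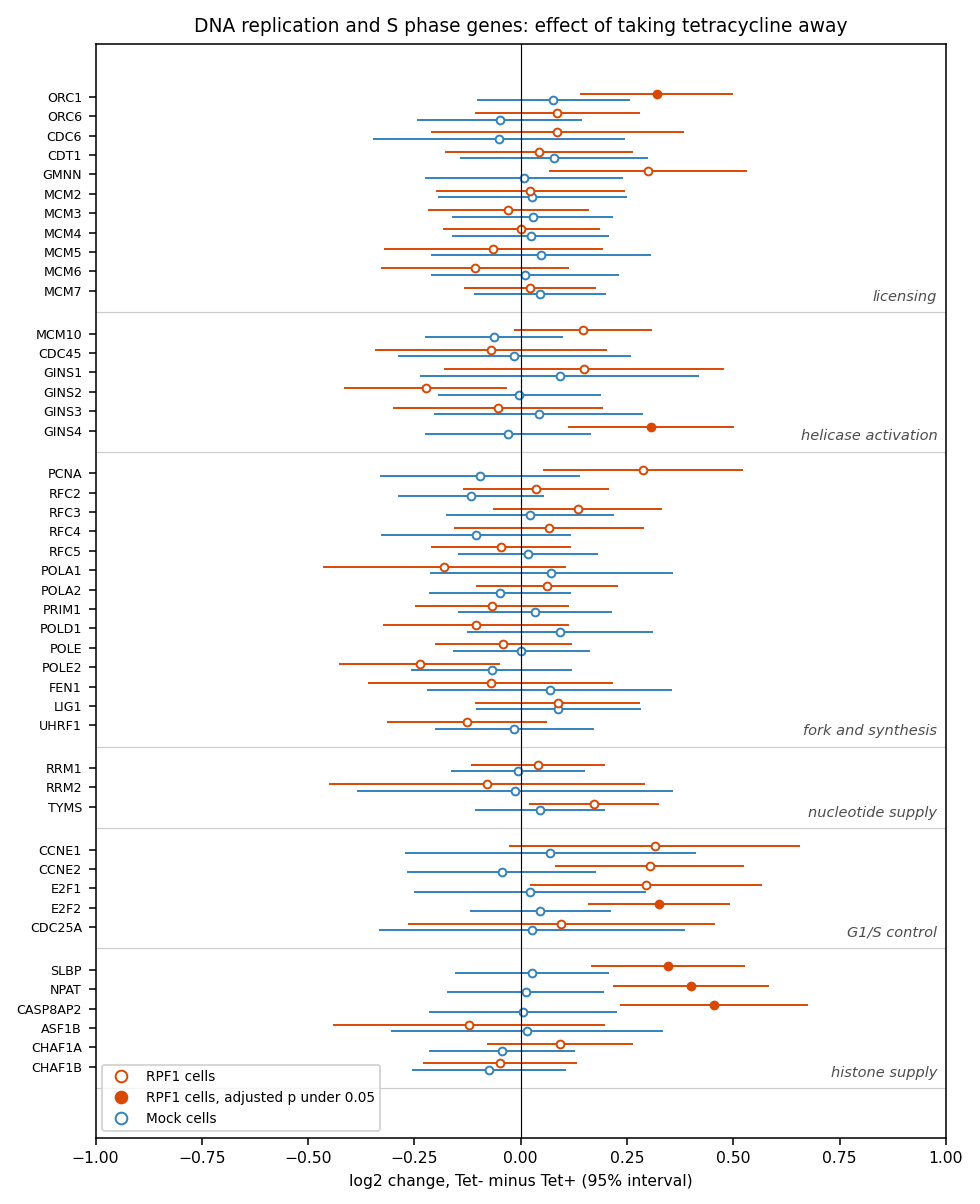
Log2 change on taking tetracycline away (Tet- minus Tet+, horizontal axis) with its 95% interval for the 45 genes, grouped by role, in RPF1 cells (orange) and Mock cells (blue), 3 arrays a group; filled points have an adjusted p under 0.05. The 6 filled points lie between 0.31 and 0.45, and all Mock points lie between −0.12 and 0.09.

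NPAT, the coactivator of histone gene transcription that cyclin E and CDK2 phosphorylate, gave normalized log2 signals of 10.80, 10.93 and 10.72 in RPF1 Tet- and 10.45, 10.29 and 10.50 in RPF1 Tet+. The Mock arrays lay between 10.25 and 10.37, so the 3 RPF1 Tet- arrays were above all 9 others. The log2 change between the RPF1 groups was 0.40 (SE 0.08, adjusted p = 0.00829), or 1.32-fold.

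CASP8AP2, which is needed for histone gene transcription in S phase, gave 11.03, 11.21 and 11.08 in RPF1 Tet- and 10.74, 10.54 and 10.67 in RPF1 Tet+, with Mock arrays between 10.33 and 10.61. Its RPF1 Tet- values were also above all others. The change was 0.45 (SE 0.10, adjusted p = 0.0114), or 1.37-fold.

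SLBP, the stem-loop binding protein, gave 11.76, 11.67 and 11.70 in RPF1 Tet- and 11.42, 11.34 and 11.33 in RPF1 Tet+, while Mock arrays lay between 11.40 and 11.62. The change was 0.35 (SE 0.08, adjusted p = 0.0163). RPF1 Tet- was above every Mock array too, but the change from Mock Tet- was 0.16 (SE 0.08, adjusted p = 0.160).

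The chaperones in the same list did not pass. The log2 difference was −0.12 for ASF1B (SE 0.15), 0.09 for CHAF1A, the large subunit of chromatin assembly factor 1 (SE 0.08), and −0.05 for CHAF1B, another of its subunits (SE 0.08), with adjusted p of 0.638, 0.474 and 0.753. Without RPF1 Tet- 2 the values were 0.08 for ASF1B and 0.02 for CHAF1B, so their sign rests on that array. The split of the list into these 3 and the 3 above was made after their values were seen.

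**Figure D2:**
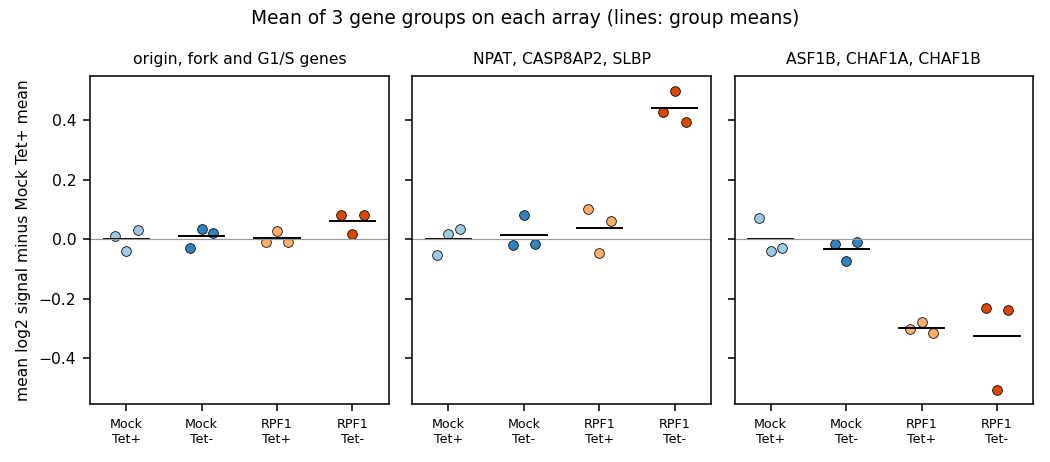
Mean log2 signal of 3 gene groups on each array, minus the Mock Tet+ mean (vertical axis), by group; points are arrays and lines group means. The mean of NPAT, CASP8AP2 and SLBP lies between 0.39 and 0.50 in RPF1 Tet- and between −0.05 and 0.10 elsewhere, while the chaperones lie between −0.50 and −0.23 in both RPF1 groups and the 39 origin, fork and G1/S genes between −0.04 and 0.08 throughout.

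ORC1, the largest origin recognition subunit, gave 10.90, 11.15 and 10.92 in RPF1 Tet- and 10.65, 10.71 and 10.64 in RPF1 Tet+, a change of 0.32 (SE 0.08, adjusted p = 0.0232). E2F2, an activator of the E2F family, gave 12.58, 12.64 and 12.60 against 12.28, 12.22 and 12.34, a change of 0.33 (SE 0.07, adjusted p = 0.0144). For both, the RPF1 Tet- arrays lay within the range of the Mock arrays (10.84 to 11.03 for ORC1 and 12.45 to 12.65 for E2F2), except RPF1 Tet- 2 above it for ORC1, and the 3 RPF1 Tet+ arrays lay below every Mock array. GINS4, a subunit of the GINS complex, gave 10.84, 10.74 and 10.86 in RPF1 Tet-, 10.58, 10.55 and 10.39 in RPF1 Tet+ and 9.99 to 10.27 in Mock, a change of 0.31 (SE 0.09, adjusted p = 0.0404).

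**Figure D3:**
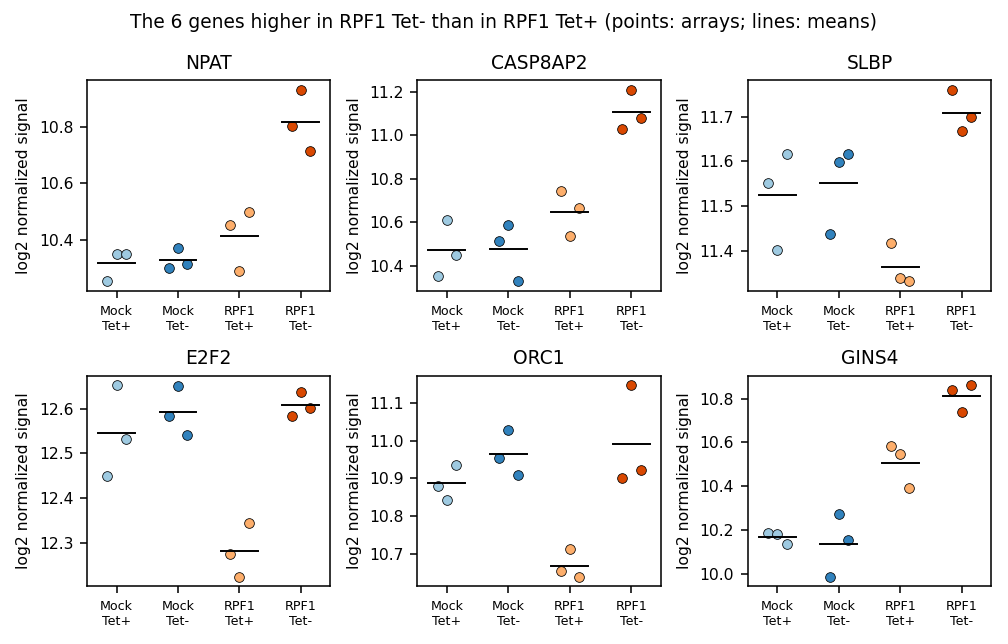
Normalized log2 signal (vertical axis) of the 6 genes higher in RPF1 Tet- than in RPF1 Tet+, on the 12 arrays; points are arrays, lines group means, and each panel has its own scale. NPAT, CASP8AP2, SLBP and GINS4 stand above all other arrays in RPF1 Tet-, while E2F2 and ORC1 stand below all Mock arrays in RPF1 Tet+.

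Of the other 39 genes, none passed. The nearest were CCNE2, a cyclin E that drives entry into S phase, at 0.30 (SE 0.10, adjusted p = 0.0704), GMNN, the inhibitor of CDT1, at 0.30 (SE 0.11, adjusted p = 0.0844), POLE2, a subunit of DNA polymerase epsilon, at −0.24 (SE 0.09, adjusted p = 0.0923), and PCNA at 0.29 (SE 0.11, adjusted p = 0.101). The 6 genes MCM2 to MCM7 had log2 differences of −0.11 to 0.02, with intervals from −0.33 to 0.24. The 3 values of each group did not overlap for 11 higher and 2 lower of the 45 genes, beside 14.8% and 14.6% of all features.

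The calls differed with chip as a block and when single arrays were left out. The second chip, whose log2 values the block gives, holds only 1 RPF1 Tet- array, so the blocked fit has less replication. Why calls were lost was not tested. With chip as a block the 6 genes had log2 changes of 0.23 to 0.40 and adjusted p of 0.123 to 0.387, and the second chip alone gave 0 called, beside 2.76% of all features. Leaving out RPF1 Tet+ 1 or RPF1 Tet+ 2 left 3 genes called, beside 1134 and 1352 of all features. Leaving out the 4 arrays that deviated together also left 3, beside 1516, where all 12 arrays gave 1771. By gene, leaving out 1 array ended the call of E2F2 (RPF1 Tet+ 1 or 2), SLBP (RPF1 Tet+ 2 or RPF1 Tet- 1), ORC1 (RPF1 Tet+ 1 or 3, or RPF1 Tet- 2) and GINS4 (any of the 12 arrays except Mock Tet- 1 and 2 and RPF1 Tet- 2), and of neither NPAT nor CASP8AP2.

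The effect of Tet in RPF1 cells was set against that in Mock cells in 1 model. No gene of the 45 passed, beside 5.13% of all features, and 7 had an unadjusted p under 0.05, beside 19.1%. The differences nearest to the threshold were 0.39 for NPAT (SE 0.12, adjusted p = 0.0895), 0.45 for CASP8AP2 (SE 0.14, adjusted p = 0.102) and 0.32 for SLBP (SE 0.12, adjusted p = 0.152). So the 6 genes were called in RPF1 cells and not in Mock cells, but the difference between the lines was not called for any of them.

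Several kept probes were available for 6 genes, and for RFC3, MCM7 and CCNE2 the calls differed between probes. In a fit of all 14752 kept probes, 9 of the 54 member probes were higher in RPF1 Tet- than in RPF1 Tet+ and 0 lower. Over all probes 12.7% were called in either direction. For 3 of the 54 the Tet effect differed between the lines, beside 4.87% of all probes. The probe ILMN_1711381 of RFC3, a clamp loader subunit, gave 8.47, 8.77 and 8.67 in RPF1 Tet- and 7.46, 7.29 and 7.67 in RPF1 Tet+, with Mock arrays between 7.06 and 7.42. Its change was 1.16 (SE 0.13, adjusted p = 0.00016), and 0.996 with chip as a block (adjusted p = 0.0147). The other RFC3 probes, ILMN_1658143 and ILMN_1784860, had differences of 0.13 (SE 0.09) and −0.07 (SE 0.08) and were not called. Between the lines without Tet, ILMN_1711381 was higher in RPF1 Tet- by 1.47, also called in the fit that blocks on chip (adjusted p = 0.003). ILMN_1784860 was lower by a log2 change of −0.45 in the same comparison (blocked adjusted p = 0.063) and of −0.41 with Tet (adjusted p = 0.0054, blocked 0.0488). ILMN_1658143 is annotated to the same transcript as ILMN_1711381.

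The MCM7 probe ILMN_1800654, annotated to another transcript than the other MCM7 probes, gave 8.36, 8.22 and 8.21 in RPF1 Tet- and 7.57, 7.82 and 7.60 in RPF1 Tet+, a change of 0.60 (SE 0.11, adjusted p = 0.00345; 0.69 and 0.0325 with chip as a block). The Mock arrays lay between 7.80 and 8.25, and RPF1 Tet+ was lower than Mock Tet+ by a log2 change of −0.43 (adjusted p = 0.019). That call was lost in 7 of 25 alternatives, 3 of them the omission of a single array. The chip block, where the change was −0.59, was another of the 7. RPF1 Tet- was higher than Mock Tet- by 0.31 (limma adjusted p = 0.044), a call lost in 18 of 25 alternatives. The other MCM7 probes had differences of 0.10 and 0.02 and were not called. The CCNE2 probe ILMN_1651260, detected on 11 arrays, gave 7.73, 7.98 and 7.83 against 6.41, 7.18 and 6.98, a change of 0.99 (SE 0.22, adjusted p = 0.0116; adjusted p = 0.215 with chip as a block), while the brighter CCNE2 probe had a difference of 0.30 and was not called. Probe sequences were not used here, so which exons these probes read is not given.

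**Figure D4:**
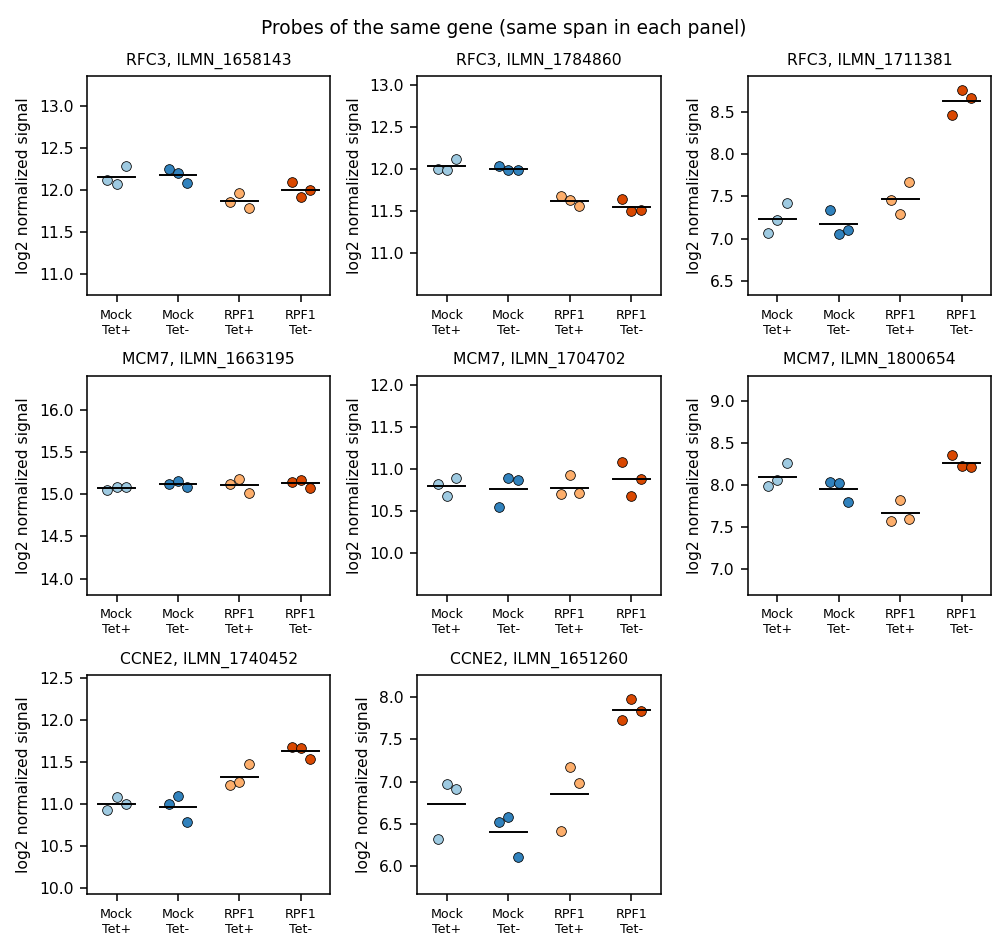
Normalized log2 signal (vertical axis, the same span in each panel) of the kept probes of RFC3, MCM7 and CCNE2 on the 12 arrays; points are arrays and lines group means. The right RFC3 and MCM7 panels and the second CCNE2 panel show RPF1 Tet- 1.16, 0.60 and 0.99 above RPF1 Tet+, and the brighter probes show differences of at most 0.30.

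The RPF1 line also differed from the Mock line with Tet present. Of the 45 genes, 6 were called, beside 15.1% of all features (7.63% higher and 7.49% lower). GMNN (0.39, SE 0.11, adjusted p = 0.0301), GINS4 (0.34, SE 0.09, adjusted p = 0.0248) and MCM3, a helicase subunit (0.28, SE 0.08, adjusted p = 0.0441), were higher in RPF1 Tet+. CHAF1A (−0.41, SE 0.08, adjusted p = 0.00612), CCNE1, the other cyclin E (−0.54, SE 0.16, adjusted p = 0.0366), and E2F2 (−0.26, SE 0.07, adjusted p = 0.0360) were lower. With chip as a block 0 of the 45 were called, beside 2.24% of all features, and on the second chip alone 0, beside 0.990%. The count was 1 or 2 without any one of Mock Tet+ 1, Mock Tet+ 2, Mock Tet+ 3, RPF1 Tet+ 1 or RPF1 Tet+ 2, and 10 without RPF1 Tet- 2.

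Without Tet, 13 of the 45 genes (28.9%) differed between the lines, beside 31.3% of all features. In RPF1 Tet-, 8 were higher, beside 15.8% of features: GINS4, CCNE2, GMNN, CASP8AP2, NPAT, PCNA, TYMS and E2F1. Another 5 were lower, beside 15.5%: GINS2, UHRF1, MCM6, ASF1B and CHAF1A. The list of 6 histone supply genes thus held 2 higher and 2 lower.

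GMNN gave 13.56, 13.95 and 13.57 in RPF1 Tet- and 13.00, 13.00 and 13.05 in Mock Tet-, a change of 0.68 (SE 0.11, adjusted p = 0.000759). GINS4 was higher by 0.68 as well (SE 0.09, adjusted p = 0.000262), from 9.99, 10.27 and 10.16 in Mock Tet-. CCNE2 gave 11.67, 11.66 and 11.53 in RPF1 Tet- and 11.00, 11.09 and 10.79 in Mock Tet-, a change of 0.66 (SE 0.10, adjusted p = 0.000645). These 3 kept their call in all 26 alternatives tried, with changes of 0.54 to 0.74, and were the 3 called with chip as a block, beside 9.50% of all features, and on the second chip alone, beside 8.45%.

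PCNA gave 15.04, 15.25 and 14.89 in RPF1 Tet- and 14.64, 14.55 and 14.52 in Mock Tet-, a change of 0.49 (SE 0.11, adjusted p = 0.00533). All 3 PCNA probes were higher in this comparison, by 0.46 to 0.60. With Tet, the dimmer PCNA probes were higher in the RPF1 line by 0.51 (ILMN_1685682) and 0.42 (ILMN_1706958), and the probe used for the gene had a difference of 0.11 and was not called. Neither was called in the blocked fit (adjusted p = 0.096 and 0.179). ILMN_1685682 lost its call in 13 of 24 alternatives, among them leaving out Mock Tet+ 1 or 3, Mock Tet- 2, RPF1 Tet- 3 or any RPF1 Tet+ array. CASP8AP2 (0.63, SE 0.10, adjusted p = 0.000904) and NPAT (0.49, SE 0.08, adjusted p = 0.0013) were the histone supply genes called higher. TYMS, thymidylate synthase, was higher by 0.25 (SE 0.07, adjusted p = 0.0173) and E2F1, an E2F activator, by 0.39 (SE 0.12, adjusted p = 0.0334).

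Among the lower genes, ASF1B gave 11.46, 10.84 and 11.44 in RPF1 Tet- and 11.77, 11.73 and 11.93 in Mock Tet-, a change of −0.56 (SE 0.15, adjusted p = 0.0127). RPF1 Tet- 2 was the lowest of the 12 arrays for it, and the groups did not overlap. MCM6 changed by −0.40 (SE 0.10, adjusted p = 0.0103), GINS2, another GINS subunit, by −0.38 (SE 0.09, adjusted p = 0.00643), UHRF1, which reads hemimethylated DNA behind the fork, by −0.35 (SE 0.08, adjusted p = 0.00889) and CHAF1A by −0.27 (SE 0.08, adjusted p = 0.0210). The GINS subunits thus went both ways, and MCM6 was lower while MCM2, MCM3, MCM4, MCM5 and MCM7 were not called. Leaving out 1 array ended the call of ASF1B (Mock Tet- 3), CHAF1A (Mock Tet- 2 or RPF1 Tet- 3), TYMS (Mock Tet- 2 or RPF1 Tet- 3) and E2F1 (any Mock Tet- array, RPF1 Tet- 1 or RPF1 Tet- 3), and of none of the other 9.

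**Figure D5:**
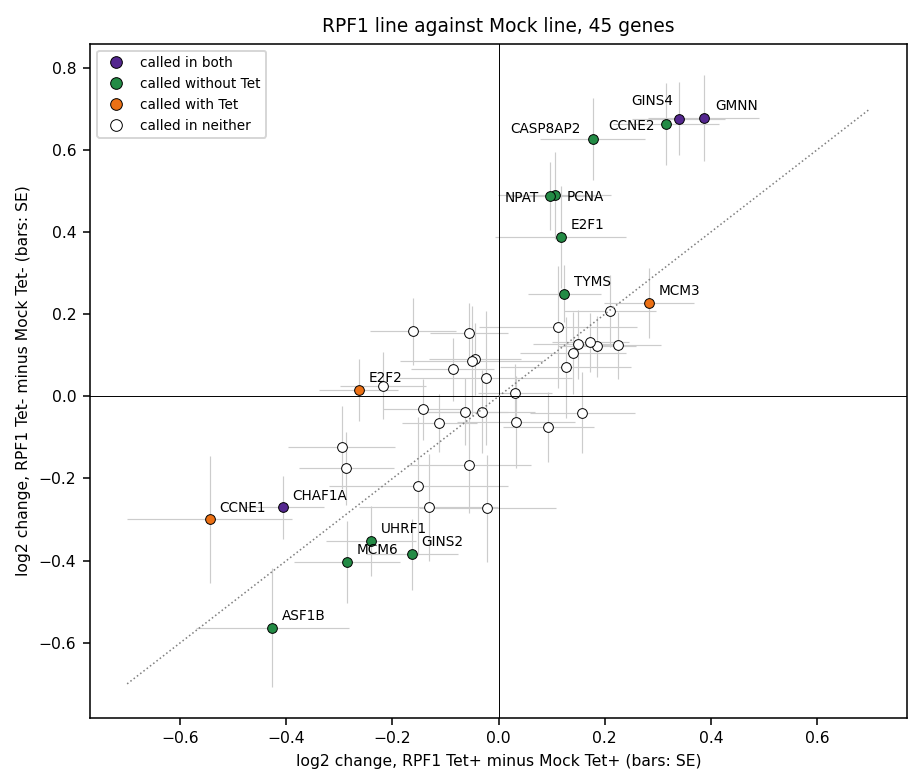
Log2 change of the RPF1 line against the Mock line with Tet (horizontal axis) and without Tet (vertical axis), with SE bars, for the 45 genes; colours show in which comparison a gene had an adjusted p under 0.05, and the dotted line marks equal changes. GMNN and GINS4 lie high and CHAF1A low in both. GMNN, GINS4, CCNE2, CASP8AP2, NPAT, PCNA and E2F1 are among the genes above the dotted line. The difference between the Tet effects was called for none of the 45.

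The comparisons with and without Tet use different arrays, and 3 genes were called in both, GMNN, GINS4 and CHAF1A. They are 3 of the 6 called with Tet and 3 of the 13 called without it. Over all features 9.98% were called in both, which is 66% of those called with Tet and 31.9% of those called without it. Over all 5 comparisons and by the probe used for the gene, 18 of the 45 genes were called at least once, beside 38.7% of all features, and 27 in none. MCM7 and RFC3 are among the 27 although other probes of theirs were called, and so are RRM1 and RRM2, the subunits of ribonucleotide reductase, the primase subunit PRIM1 and the ligase LIG1. RPF1 Tet- against RPF1 Tet+ shares arrays with both comparisons of the lines, so its calls are not independent of theirs.

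Genes of the same pathways outside the 45 were read from lists of 47 other replication genes (44 tested), 15 other histone supply genes (14 tested) and 30 genes of G2 and mitosis (30 tested). Between RPF1 Tet- and RPF1 Tet+, 3 of the 44 other replication genes were higher and 2 lower, beside 6.67% and 6.72% of all features. E2F7, a repressor of E2F target genes, gave 11.41, 11.67 and 11.54 in RPF1 Tet- and 10.79, 10.86 and 11.01 in RPF1 Tet+, with Mock arrays between 11.04 and 11.12, a change of 0.65 (SE 0.09, adjusted p = 0.00052). TOPBP1, which helps activate the helicase, was higher by 0.30 (SE 0.07, adjusted p = 0.0195) and CDK2, the kinase partner of cyclin E, by 0.28 (SE 0.08, adjusted p = 0.0313). DUT, which removes dUTP, changed by −0.34 (SE 0.09, adjusted p = 0.0316) and POLD3, a subunit of DNA polymerase delta, by −0.30 (SE 0.09, adjusted p = 0.0442).

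Of the 14 other histone supply genes, RBBP4, a histone-binding subunit of chromatin assembly factor 1, was higher by 0.39 (SE 0.11, adjusted p = 0.0427) and ERI1, an exonuclease that trims histone mRNA ends, by 0.36 (SE 0.10, adjusted p = 0.0353). With chip as a block, 0 genes of these lists were called between the RPF1 groups, beside 3.18% of all features. Leaving out 1 array ended the call of TOPBP1 (RPF1 Tet+ 1 or RPF1 Tet- 1), CDK2 (RPF1 Tet+ 2 or 3, RPF1 Tet- 1 or 3), DUT (any RPF1 array except RPF1 Tet- 1), POLD3 (any array except Mock Tet- 1, RPF1 Tet+ 3 and RPF1 Tet- 1), RBBP4 (any except Mock Tet- 1 and 3) and ERI1 (any RPF1 array except RPF1 Tet+ 3, or Mock Tet+ 3), and not of E2F7. None of the 30 G2 and mitosis genes was called in that comparison, beside 13.4% of all features, and their median log2 change was 0.08. The values of 9 lay higher and of 1 lower without overlap, beside 14.8% and 14.6% of all features. Between the lines without Tet, 8 of the 44 other replication genes were higher and 11 lower, beside 15.8% and 15.5% of all features, with E2F3, an E2F activator, at 0.76 (SE 0.10, adjusted p = 0.000214) and POLD4, a small polymerase delta subunit, at −0.72 (SE 0.18, adjusted p = 0.0112). In the same comparison 6 other histone supply genes were higher and 1 lower, and 6 G2 and mitosis genes were higher and 2 lower, with the kinase TTK at 0.62 (SE 0.11, adjusted p = 0.00165). With chip as a block 1 of the other replication genes, 2 of the other histone supply genes and 1 of the G2 and mitosis genes were called, beside 9.50% of all features; E2F3 kept its call in all 26 alternatives.

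Markers of other cell types were read beside these results. The summed level of the blood list, of which 3 of 7 genes with a probe were detected on all 12 arrays, was 10.4 in both Mock groups and in RPF1 Tet+, and 11.2 in RPF1 Tet- (log2), and CD3D was detected on no array. Within it HBA1, CD68 and LCP1 were higher in RPF1 Tet- than in RPF1 Tet+ (log2 changes of 1.89, 0.60 and 0.55), and PTPRC had a difference of −0.20 and was not called. The fibroblast list (3 of 6) summed to 11.1 in both Mock groups, 11.3 in RPF1 Tet+ and 10.2 in RPF1 Tet-, with COL1A2 on no array. COL3A1 and LUM were lower in RPF1 Tet- than in RPF1 Tet+ (−2.18 and −1.50) and COL1A1 was higher (0.42). No keratinocyte gene and 1 of 6 endothelial genes (VWF) were detected on all 12 arrays. Their part in the results was not tested.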

How the data were processed

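The authors' deposited intensity values and detection p-values per probe come from BeadStudio (submitters' processing notes; no version is given in the sources used). The second deposited table of intensities is close to the quantile-normalized raw values (median difference 0.00626%, largest 2.11%) and served as an alternative. Raw intensities were background-corrected with normexp through the detection p-values (limma 3.58.1 in R 4.3.3, offset 16), quantile-normalized and log2-transformed. Out of 22184 probes, 14752 with detection p under 0.05 on 3 or more arrays were kept, and the brightest probe stood for each gene (13228 features). One limma model with the 4 groups was fitted to the 12 arrays (8 residual degrees of freedom) with Benjamini-Hochberg adjustment over all features, and called means an adjusted p under 0.05. The script was tested on simulated data. Of the probes, 19715 had 1 gene symbol and 2469 none. The number of arrays limits the precision. Members and lists were chosen with earlier results of these data known. Named genes were those called, those with the smallest p in a contrast, and probes of a gene that disagreed. Alternatives covered background, scaling, filter, chip, replicate block and single arrays.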

Additional observations from a re-analysis of the deposited data

Results flagged for a closer look

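Over all features, 5.13% had a Tet effect that differed between RPF1 and Mock cells (limma adjusted p under 0.05). Of the 45 member genes, 0 did. In the other lists, 1 of 44 replication genes, 1 of 14 histone supply genes and 0 of 30 mitosis genes did. In the fit of all kept probes, 3 of the 54 member probes did, beside 4.87% of all probes. None of those 3 is the probe used for a member gene. For E2F7 the Tet effect was 0.68 larger on the log2 scale in RPF1 than in Mock cells (SE 0.12, adjusted p = 0.00901). It was 0.56 with chip as a block, where it was not called, and the call held without any single array. For ERI1 it was 0.54 larger (SE 0.14, adjusted p = 0.0479), a call lost in 21 of 25 alternatives, 11 of them the omission of a single array (any but Mock Tet- 1). For the RFC3 probe ILMN_1711381 it was 1.23 larger (SE 0.18, adjusted p = 0.0030), for the MCM7 probe ILMN_1800654 0.74 larger (SE 0.15, adjusted p = 0.016) and for the CCNE2 probe ILMN_1651260 1.33 larger (SE 0.31, adjusted p = 0.0324). With chip as a block these 3 were 1.25, 0.99 and 1.38 and were not called. The CCNE2 call was lost in 10 of 23 alternatives, 7 of them the omission of a single array (Mock Tet+ 2 or 3, Mock Tet- 1 or 3, RPF1 Tet+ 1, RPF1 Tet- 2 or 3), and the RFC3 and MCM7 calls in 2 and 3 of 24, none of them a single array.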

How the results depend on the processing

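Of 1661 values of named genes and probes under the alternatives, 1351 kept their direction and side of the threshold, 292 lost their call, 10 gained one and 8 turned their sign. No called value turned its sign. The 8 are ASF1B and CHAF1B between the RPF1 groups, which were not called: 0.0918 and 0.00815 with the chip block or when only the second chip was used, 0.0807 and 0.0195 without RPF1 Tet- 2, and 0.0792 and 0.0334 without the 4 arrays that deviated together. Over the omission of single arrays they ran from −0.228 to 0.0807 and from −0.0875 to 0.0195. Over all 225 member values, 36 had the other sign with the chip block, none of them called. The count of members called between RPF1 Tet- and RPF1 Tet+ was 6, and became 0 with chip as a block, 0 on the second chip alone, 1 with only the arrays compared, and 3 without the 4 arrays that deviated together, an alternative chosen after seeing the data. It ranged from 3 to 6 when single arrays were left out. Over all features 1771 were called, 421 with chip as a block, 972 with only the arrays compared and 1516 without the 4 arrays. Single omissions left 1134 to 1699 features called. For RPF1 Tet+ against Mock Tet+ the count was 6, and became 10 with the authors' values, without background correction or with detection p under 0.01 on all 12 arrays, 12 with an intensity trend and robust prior, 0 with the chip block or the second chip by itself, and 1 to 10 when single arrays were left out. The replicate number as a block left 1. Over all features this comparison gave 2000 calls, 2281 with the authors' values, 2282 without background correction and 2115 with the stricter detection filter. It gave 2326 with the intensity trend and robust prior, 296 with the chip block and 1456 with the replicate block. Single omissions gave 1095 to 2395. The labels used here do not say whether equal replicate numbers mark paired samples. Correlations of same-numbered deviations ran from −0.392 to 0.410, and 6 of 18 exceeded 0.1. They do not decide it, because deviations shared across numbers can hide a pairing. For RPF1 Tet- against Mock Tet- the count was 13, 3 with the chip block or the second chip by itself, and 10 to 14 when single arrays were left out. Over all features 4135 were called there, 1256 with the chip block and 2992 to 4257 when single arrays were left out. Both Mock Tet- against Mock Tet+ and the difference between the Tet effects gave 0 members throughout. Over all features the first also gave 0, and the second gave 679, or 98 with the chip block. The chip fits have fewer arrays or degrees of freedom; otherwise the cause was not tested. With 1 array each of Mock Tet+ and RPF1 Tet- on the second chip, the lone array is assumed to vary like the other groups.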
